A study of Homo sapiens with 5 samples.

Results

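The genes described here encode 5 Eph receptors (EPHA1, EPHA2, EPHB2, EPHB3 and EPHB4) and 5 ephrins (EFNA1, EFNA4, EFNA5, EFNB1 and EFNB2), 10 of the 17297 genes in a table of ribosome footprint counts. The rows were taken by gene symbol. EFNA5 was selected on its footprint counts, for its rise in the mutant cells, so its values are given as a description with no test. The other 9 belong to the same family and were chosen with earlier results of these data known. A further 12 family genes in the table are not among the 10. HCT116, a human line from a colorectal carcinoma, was profiled in 2 libraries of unedited cells (WT) and 3 libraries of cells homozygous for the eIF6 substitution N106S (MUT), made by CRISPR/Cas9 editing. The labels speak of mutant clones without saying which clone gave which library, or whether libraries of a group were grown separately, so the p-values rest on a spread between libraries that may be only technical. Footprints of 25 to 35 nucleotides came from the single-ribosome fraction of a sucrose gradient after MNase digestion. The series' title asks what targeting eIF6, a factor that keeps the ribosomal subunits apart, does to mitotic exit and cancer progression.

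Eph receptors are the largest family of receptor tyrosine kinases, and their ligands, the ephrins, are themselves held in the membrane of the neighbouring cell, so signals pass where cells touch and can run in both directions. A-class ephrins hang on a glycosylphosphatidylinositol (GPI) anchor and bind mainly EphA receptors, whereas B-class ephrins cross the membrane, have a cytoplasmic tail and bind mainly EphB receptors. In the intestine EphB receptors and ephrin-B proteins lie in opposing gradients along the crypt axis and keep cells in their places, and EPHB2 and EPHB3 are targets of WNT signalling.

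The receptor EPHA2 and the ephrin EFNB2 had more footprints in MUT, by 1.45-fold and 1.52-fold, and both passed the test. EFNA5, with 2 and 4 counts in the WT libraries, had 24 to 31 in the MUT libraries. EPHB4, the receptor that pairs with ephrin-B2, stood at almost the same level in both groups, and no member was called lower in MUT. Of the 9 members other than EFNA5, 6 had enough counts to be tested. Of these, 2 were called higher and 0 lower at an adjusted p under 0.05 (edgeR's quasi-likelihood test with Benjamini-Hochberg adjustment over all genes), against 10.0% of all 11991 tested genes called higher and 12.9% called lower. At an unadjusted p under 0.05 the counts were 2 and 0 as well, and so they were with DESeq2. The members were chosen with earlier results known, so their share of calls is not a test of the family. Outside the members, the family genes EPHA4, EFNA2 and EFNA3 passed the count filter through both groups, and none was called. All MUT libraries lay above all WT libraries for 25.4% of tested genes. The split over all genes depended on the scaling, with 1203 higher and 1544 lower under TMM, 1558 and 1209 under upper-quartile scaling, and 1756 and 1040 with library size only. The median log2 fold change of the 6 tested members was 0.24, beside 0.00 for all genes tested. Both calls ended when WT replicate 2 was left out, which leaves WT with 1 library assumed to vary like the MUT libraries (adjusted p 0.137 for EPHA2 and 0.192 for EFNB2 in edgeR).

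The upstream sequences of the 3 genes whose footprints stood higher in every MUT library are printed so that they can be set side by side. They are the 250 bases before the start given by RefSeq on GRCh38.p14, 5′ to 3′ on the gene's own strand. Capitals mark matches on either strand to 1 of 5 motifs: the AP-1 site TGANTCA, the cAMP response element TGACGTCA, the TEAD site GGAATG, the E-box CACGTG and the GC box GGGCGG. The motifs were chosen after the EPHA2 sequence had been seen.
EPHA2, chr1:16156070-16156319, minus strand: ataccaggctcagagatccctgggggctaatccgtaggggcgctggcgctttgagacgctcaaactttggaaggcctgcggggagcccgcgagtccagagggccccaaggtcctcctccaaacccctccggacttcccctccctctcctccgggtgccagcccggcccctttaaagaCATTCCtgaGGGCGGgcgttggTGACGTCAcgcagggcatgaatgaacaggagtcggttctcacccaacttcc
EFNB2, chr13:106535663-106535912, minus strand: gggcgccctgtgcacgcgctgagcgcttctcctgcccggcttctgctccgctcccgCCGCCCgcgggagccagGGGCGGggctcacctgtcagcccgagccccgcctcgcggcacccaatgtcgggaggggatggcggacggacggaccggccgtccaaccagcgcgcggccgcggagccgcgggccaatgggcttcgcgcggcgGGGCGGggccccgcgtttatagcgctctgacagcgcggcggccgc
EFNA5, chr5:107670938-107671187, minus strand: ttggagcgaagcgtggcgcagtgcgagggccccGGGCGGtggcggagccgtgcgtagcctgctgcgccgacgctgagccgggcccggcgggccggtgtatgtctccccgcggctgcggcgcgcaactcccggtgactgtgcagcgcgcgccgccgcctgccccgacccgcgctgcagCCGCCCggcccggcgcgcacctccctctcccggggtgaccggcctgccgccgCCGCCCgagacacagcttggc
EPHA2 was the only member of the 10 with a cAMP response element, at bases -51 to -44 from the start, and the only one with a TEAD site, at -73 to -68. Among 35116 promoters of the same length in the RefSeq table, 1.65% held TGACGTCA and 11.9% held GGAATG. GC boxes were found in all 10 members, with 3 each in EFNB2 and EFNA5, and in 42.6% of all promoters. None of the 10 held TGANTCA or CACGTG, which 6.57% and 6.34% of all promoters did. The EPHA2 window was 63.2% G and C, that of EFNB2 78.4% and that of EFNA5 79.6%, where the median promoter had 58%. All 10 members lay above that median, from 58.4% (EFNA4) to 84.8% (EPHB2). The GC box consists of G and C alone, and promoters of like G and C content were not compared. These matches describe letters only, and footprint counts do not separate mRNA level from ribosomes per mRNA. Binding of any factor was not tested.

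EPHA2, a receptor for ephrin-A1 that is abundant in many carcinomas, is encoded on chromosome 1 at 16124337 to 16156069 (gene ID 1969, gene bounds on GRCh38.p14). Its counts were 96 and 125 for WT and 206, 230 and 253 for MUT. As CPM, the counts scaled to a common library size, these were 47.9 and 40.9 for WT replicates 1 and 2, and 65.5, 60.6 and 64.9 for MUT replicates 1, 2 and 3. Every MUT library lay above both WT libraries. WT libraries averaged 44.4 ± 5.00 CPM (SD, n = 2) and MUT libraries 63.7 ± 2.71 CPM (SD, n = 3), and edgeR gave a log2 fold change of 0.53 (SE 0.135, adjusted p 0.00609). The log2 fold change ran from 0.41, without WT replicate 2, to 0.63 over 13 alternative settings, and 12 of them kept the call.

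EPHB4, which binds ephrin-B2 and with it marks off veins from arteries, is encoded on chromosome 7 at 100802565 to 100827523. It had 32.5 and 35.6 CPM in WT and 34.4, 32.4 and 35.2 CPM in MUT, and the groups overlapped. Its log2 fold change of -0.01 had a 95% confidence interval from -0.34 to 0.31, so a change as large as that of EPHA2 lay outside the interval (edgeR's adjusted p 0.967). The sign of this value turned with the setting, from -0.08 without WT replicate 1 to 0.07 without WT replicate 2. The annotated span of EPHB4 overlaps that of SLC12A9, and whether counting was by strand is not stated in the labels. Spans of EPHA1, EPHA2, EPHB2, EFNA5 and EFNB2 overlap annotated long noncoding RNAs, which had no rows of their own.

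EPHB2, a receptor of the crypt base that marks intestinal stem and progenitor cells, had 9.49 and 7.52 CPM in WT and 9.22, 10.5 and 13.1 CPM in MUT. MUT replicate 1 fell between the WT libraries. Its log2 fold change of 0.40 (SE 0.308) missed the threshold, with an adjusted p of 0.370 in edgeR and an interval from -0.23 to 1.03. A rise of the size seen for EPHA2 is inside that interval, so at this depth such a rise could be neither shown nor set aside for EPHB2.

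The other receptors were too thinly covered to test. EPHA1, a receptor of epithelia, was counted 4 and 9 times in WT, and 11 times in each MUT library, which was 2.00 and 2.94 CPM against 3.50, 2.90 and 2.82 CPM. EPHB3, the partner of EPHB2 in crypt positioning, was counted 6 and 2 times in WT, and 10, 5 and 12 times in MUT. Both genes overlapped between groups. In the fit without a count filter their log2 fold changes were 0.27 (SE 0.612) and 0.61 (SE 0.749), with adjusted p in edgeR of 0.823 and 0.662. The 95% intervals, from -0.93 to 1.47 and from -0.86 to 2.08, leave a rise or a fall possible for both.

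**Figure D1:**
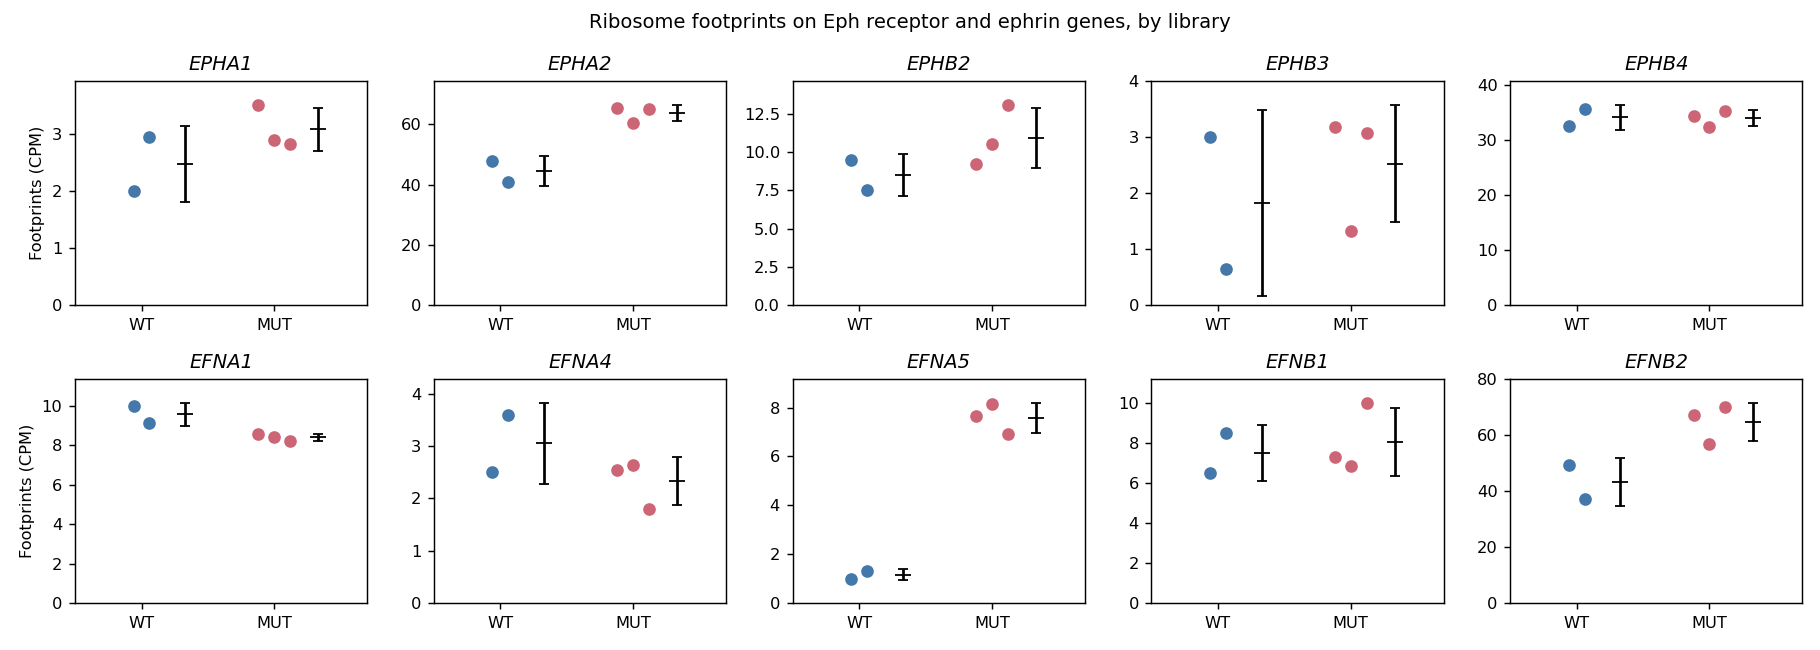
Footprints on each of the 10 genes in CPM (vertical axes from 0, a scale of its own for each gene) in the WT libraries (blue points, n = 2) and MUT libraries (red points, n = 3), with the mean and SD beside the points. EPHA2, EFNA5 and EFNB2 show every MUT point above both WT points, and EPHB4 shows the groups at one level.

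Among the ephrins, EFNB2, the transmembrane ligand of EPHB4 and other EphB receptors, lies on chromosome 13 at 106489745 to 106535662 (gene ID 1948). It was counted 99 and 114 times in WT, and 211, 216 and 273 times in MUT, or 49.4 and 37.3 CPM against 67.1, 56.9 and 70.0 CPM. All MUT libraries were above both WT libraries, although the WT libraries differed from each other by more than the lowest MUT library differed from WT replicate 1. WT libraries averaged 43.4 ± 8.61 CPM (SD, n = 2) and MUT libraries 64.7 ± 6.92 CPM (SD, n = 3). The log2 fold change was 0.60 (SE 0.148, edgeR's adjusted p 0.00482). It ranged from 0.39, without WT replicate 2, to 0.79, without WT replicate 1, and was called in 12 of 13 alternative settings.

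EFNB1, the other B-class ephrin of the list, is X-linked (68829021 to 68842160). It had 6.49 and 8.50 CPM in WT and 7.32, 6.85 and 10.0 CPM in MUT, with overlapping groups. Its log2 fold change of 0.08 (SE 0.344) missed the threshold (edgeR's adjusted p 0.892), and its interval ran from -0.63 to 0.79, which includes the change measured on EFNB2. The sign turned under some settings, with values from -0.11 to 0.32.

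EFNA1, the main ligand of EPHA2 and known as a gene induced by tumour necrosis factor, had 9.99 and 9.15 CPM in WT and 8.59, 8.43 and 8.21 CPM in MUT. All 3 MUT libraries were below both WT libraries, as they were for 25.3% of tested genes. The log2 fold change of -0.18 (SE 0.310) missed the threshold (edgeR's adjusted p 0.718), and its interval from -0.82 to 0.46 does not hold the value of EPHA2, 0.53. It was negative in each of the 12 settings that tested it. The receptor EPHA2 and its ligand EFNA1 had log2 fold changes of opposite sign, and only that of EPHA2 passed. The interval of EFNA1 includes 0 and overlaps that of EPHA2, which ran from 0.26 to 0.81. A difference between the log2 fold changes of these 2 genes was not tested.

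EFNA4, another GPI-anchored ephrin, was counted 5 and 11 times in WT, and 8, 10 and 7 times in MUT, too few to test. Without a count filter its log2 fold change was -0.42 (SE 0.626, edgeR's adjusted p 0.743). Its annotated span overlaps read-through genes to ADAM15 and EFNA3, so how its reads were assigned is uncertain. The read-through gene of EFNA4 and EFNA3 also overlaps EFNA3, so the same holds for EFNA3.

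EFNA5, a GPI-anchored ephrin best known for repelling growing axons in the visual system, is encoded on chromosome 5 at 107376894 to 107670937 (gene ID 1946). EFNA5 was counted 2 and 4 times in WT, and 24, 31 and 27 times in MUT. In CPM these were 0.999 and 1.31 against 7.63, 8.16 and 6.93, with means of 1.15 ± 0.218 (SD, n = 2) and 7.58 ± 0.620 (SD, n = 3). The lowest MUT library was above the highest WT library by a wide margin. Pooled over libraries, 6 counts stood against 82 (a ratio of 6.38 after scaling for library size). The fitted fold change was 6.22-fold, the number 5 rise among all tested genes, and it ran from 5.60-fold with limma-voom to 7.36-fold without WT replicate 2. The gene passed the count filter through the MUT libraries alone, so a difference between groups was part of being in the fit. Of the counts of the A-class ephrins among the members (EFNA1, EFNA4 and EFNA5), it held 7.41% and 9.30% in WT and 40.7%, 42.5% and 40.9% in MUT. These shares in part restate the choice of EFNA5, and those in WT rest on 2 and 4 counts. They leave out EFNA2, counted 29 and 51 times in WT, and 38, 80 and 94 times in MUT. They also leave out EFNA3, counted 43 and 68 times in WT, and 57, 85 and 100 times in MUT. Among all A-class ephrins in the data the share of EFNA5 was therefore lower.

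The 5 genes whose pattern over the libraries was most like that of EFNA5 were CPA4, CLPTM1, TGM2, RBM19 and HECW1. Likeness was the root mean square difference of log2 CPM after each gene was centred on its mean over the 5 libraries, among genes with a mean of at least 10 CPM. CPA4, a secreted carboxypeptidase, was nearest at 0.189 log2 units, with 15.5 and 16.3 CPM in WT and 86.8, 70.0 and 86.7 CPM in MUT. CLPTM1 lay at 0.323, the protein cross-linking enzyme TGM2 at 0.344, RBM19, an RNA-binding protein of ribosome assembly, at 0.346 and the ubiquitin ligase HECW1 at 0.350. Their fold changes ran from 2.81 (RBM19) to 5.06 (CPA4), and the ranking carries no test.

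**Figure D2:**
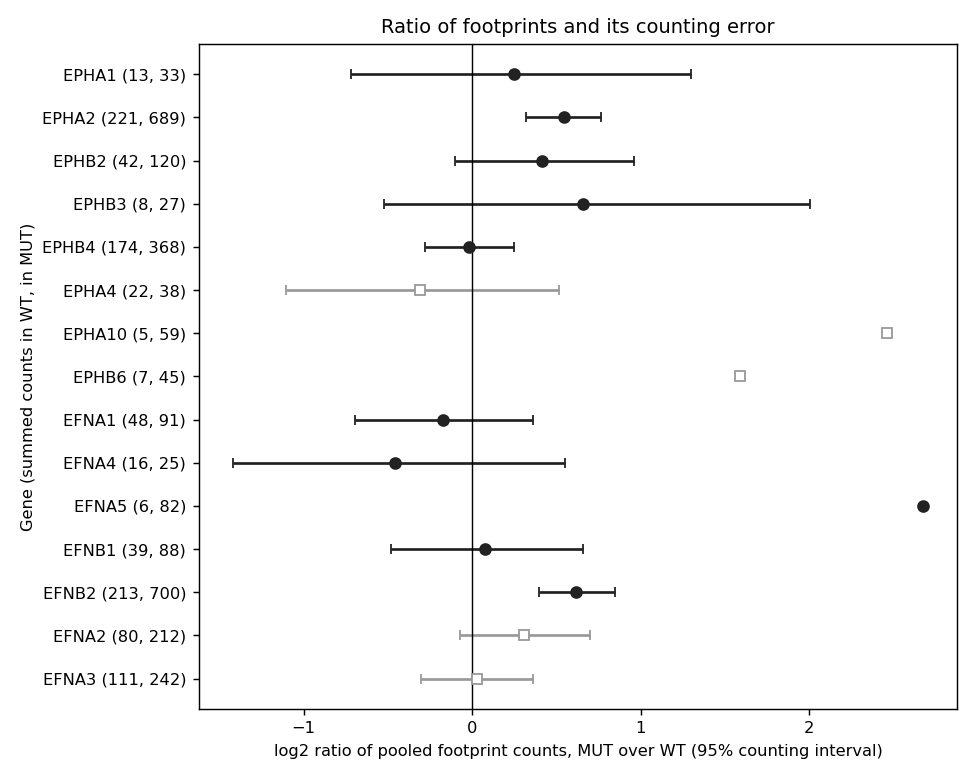
Log2 ratio of summed footprint counts, MUT over WT and scaled for library size (horizontal axis), with its 95% exact counting interval, for the 10 members (black circles) and 5 other family genes that were tested (grey squares). Summed counts of each group stand beside the gene names. The intervals, which leave out the spread between libraries, lie above 0 for EPHA2 and EFNB2. EFNA5, EPHA10 and EPHB6 are drawn without one because they passed the count filter through the MUT libraries alone.

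Summed over the 5 receptors, footprints came to 94.9 and 87.6 CPM in WT and 116, 108 and 119 CPM in MUT. The share of EPHA2 among them was 50.5% and 46.6% in WT, and 56.6%, 56.2% and 54.5% in the MUT libraries. The share of EPHB4 was 34.2% and 40.7% in WT and 29.7%, 30.1% and 29.5% in MUT. The 4 ephrins among the members other than EFNA5 together had 68.4 and 58.5 CPM in WT and 85.6, 74.8 and 90.1 CPM in MUT, a sum that leaves out EFNA2 and EFNA3. EFNB2 made up 72.3% and 63.7% of their counts in WT and 78.4%, 76.1% and 77.8% in MUT. With EFNA5 included, the sums were 69.4 and 59.8 CPM against 93.2, 82.9 and 97.0 CPM, a difference that in part restates the choice of EFNA5. These are shares of counts, which also depend on gene length, and coding lengths were not used here.

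The family's remaining 12 genes were also in the table. EPHA10, an Eph receptor without kinase activity, was counted 3 and 2 times in WT, and 15, 26 and 18 times in MUT, with a fitted log2 fold change of 2.40 over all libraries and 1.84 without WT replicate 2. EPHB6, the other receptor known to lack kinase activity, was counted 4 and 3 times in WT, and 15, 13 and 17 times in MUT. Its fitted log2 fold change was 1.55, and it ranged from 1.05 to 2.04 over the settings. Like EFNA5, both entered the fit through their MUT counts alone, so a difference was part of being in the fit and no test is given. EFNA2 and EFNA3 were better covered and did not pass, with log2 fold changes of 0.30 (SE 0.256) and 0.02 (SE 0.203). EPHA4, a receptor that binds both ephrin classes, was counted 6 and 16 times in WT, and 15, 11 and 12 times in MUT and did not pass. The remaining 7 genes (EPHA3, EPHA5, EPHA6, EPHA7, EPHA8, EPHB1 and EFNB3) had at most 3 counts in any library.

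**Figure D3:**
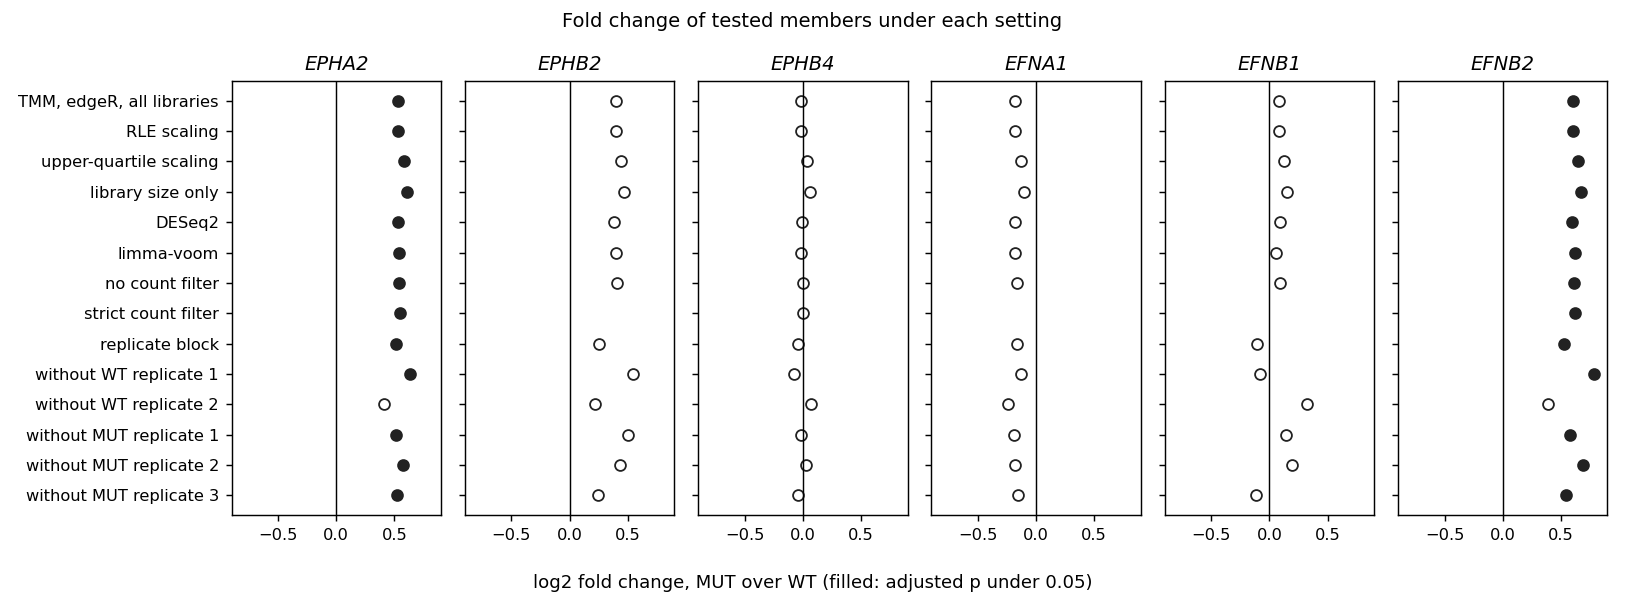
Log2 fold change, MUT over WT (horizontal axes), of the 6 tested members other than EFNA5 under the settings named on the vertical axis, filled where the adjusted p was under 0.05. EPHA2 and EFNB2 stay filled except without WT replicate 2. EPHB2, EFNA1 and EFNB1 have no value under the strict count filter, which they did not pass.

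Of 54 tested cytoplasmic partners of Eph receptors and ephrins, in a list of 61, 7 were called higher (13.0%) and 10 lower (18.5%), against 10.0% and 12.9% of all tested genes, with a median log2 fold change of 0.03 beside 0.00. With library size only, the calls were 9 higher and 7 lower. WASL, the actin nucleation promoter N-WASP, fell 1.82-fold: the WT mean was 114 ± 2.74 CPM (SD, n = 2), the MUT mean 62.4 ± 4.05 CPM (SD, n = 3). YES1, a SRC family kinase, fell 1.52-fold and the polarity protein PARD6B 1.55-fold. PTK2, the focal adhesion kinase, fell 1.37-fold, and the focal adhesion scaffold BCAR1 rose 1.66-fold. Each of these 5 kept its call in 13 of 13 alternative settings, with adjusted p up to 0.0264 (BCAR1). The list's count was less steady: without WT replicate 1 the calls were 2 higher and 6 lower, and 3 were higher when WT replicate 2 was left out. DESeq2 called 4 higher.

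Of 17 tested genes of ectodomain shedding and intramembrane cleavage, 2 were higher and 2 lower (11.8% each way), a share near that of all tested genes (10.0% and 12.9%). ADAM10, the metalloprotease that cuts ephrins from the cell surface after they bind their receptor, averaged 79.7 ± 1.72 CPM across WT (SD, n = 2) but 56.7 ± 1.29 CPM across MUT (SD, n = 3), 1.40-fold lower (edgeR's adjusted p 0.00443). It kept its call in 13 of 13 settings, with adjusted p up to 0.0447. TSPAN5 and TSPAN17, tetraspanins that escort ADAM10 to the membrane, rose 1.25-fold and 1.32-fold, and the metalloprotease ADAM19 fell 1.31-fold. The related tetraspanins TSPAN14, TSPAN15 and TSPAN33 were tested and not called. TSPAN5 lost its call without WT replicate 1, WT replicate 2, MUT replicate 1 or MUT replicate 3 (adjusted p up to 0.205), and TSPAN17 without the same libraries (up to 0.310). ADAM19 lost it without WT replicate 1, WT replicate 2, MUT replicate 1 or MUT replicate 2 (up to 0.217) and with library size only (0.0748). DESeq2 called none of TSPAN5, TSPAN17 and ADAM19. Over the list, 0 were higher without WT replicate 1, WT replicate 2, MUT replicate 1 or MUT replicate 3, and 1 was lower without WT replicate 1, WT replicate 2, MUT replicate 1 or MUT replicate 2.

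Of 25 tested genes that build or attach the GPI anchor of A-class ephrins, 3 were higher (12.0%) and 1 lower (4.00%), and for the higher calls this is near the 10.0% of all tested genes (12.9% lower). PIGU, GPAA1 and PIGT, all subunits of the GPI transamidase that joins the anchor to the protein, rose 2.52-fold, 1.89-fold and 1.47-fold. PIGK and PIGS, subunits of the same transamidase, were tested and not called. PIGU averaged 9.74 ± 1.76 CPM across WT (SD, n = 2) but 24.2 ± 2.48 CPM across MUT (SD, n = 3) and kept its call in 13 of 13 settings. GPAA1 lost its call without WT replicate 1 (edgeR's adjusted p 0.0656). PIGT lost it with DESeq2 and without WT replicate 1, WT replicate 2, MUT replicate 2 or MUT replicate 3 (adjusted p up to 0.201). PIGX, a subunit of an earlier mannosyltransferase, fell 1.37-fold and lost its call with DESeq2, with upper-quartile scaling, with library size only, and without WT replicate 1, WT replicate 2 or MUT replicate 2 (up to 0.182). Without WT replicate 1 the list had 1 gene higher and 0 lower, and 0 were lower without WT replicate 2 or MUT replicate 2.

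**Figure D4:**
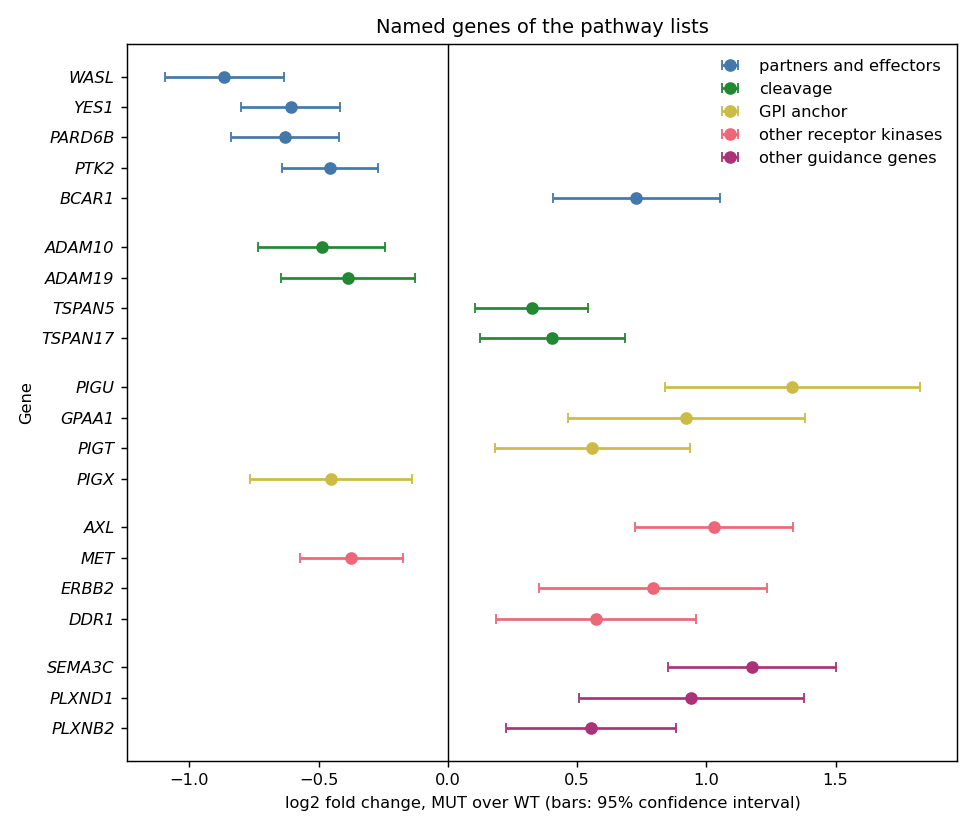
Log2 fold change, MUT over WT (horizontal axis), with 95% confidence intervals from the fit over all 5 libraries, for the genes named from each pathway list (colours), without NRP1, which passed the count filter through the MUT libraries alone. Genes were named for the lowest p in their list, so that every interval lies to one side of 0 follows from the choice.

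Of the tested members, only EPHA2, EPHB2 and EPHB4 are receptor kinases, since the ephrins are ligands. EPHA2 was called higher, and EPHB2 and EPHB4 were not called. Among 26 tested receptor tyrosine kinases other than Eph receptors, 3 were higher (11.5%) and 1 lower (3.85%), beside 10.0% and 12.9% of all tested genes. AXL rose 2.04-fold, with a WT mean of 31.5 ± 4.84 CPM (SD, n = 2) and a MUT mean of 63.4 ± 4.07 CPM (SD, n = 3), and kept its call in 13 of 13 settings. ERBB2 and DDR1 rose 1.73-fold and 1.49-fold and MET fell 1.30-fold. ERBB2 lost its call without WT replicate 1 or WT replicate 2 (edgeR's adjusted p up to 0.0799), DDR1 with DESeq2, with limma-voom and without WT replicate 1, WT replicate 2 or MUT replicate 1 (up to 0.192) and MET without WT replicate 1 or MUT replicate 1 (up to 0.0722). Without WT replicate 1 or WT replicate 2 the list had 1 gene higher, and without WT replicate 1 or MUT replicate 1 it had 0 lower. Whether Eph receptors and other kinases differ was not tested.

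The libraries held 2095217 to 3821176 counts, with the fewest in WT replicate 1, where 1 count was worth 0.499 CPM. Epithelial keratins KRT8, KRT18 and KRT19 and EPCAM were well covered in all libraries, as was the intestinal transcription factor CDX2 (23.5 to 32.9 CPM), whereas the intestinal markers VIL1, CDX1 and CEACAM6 had at most 2 counts in any. Of 9 tested genes on that epithelial list, KRT8 and KRT19 were called higher and EPCAM, CDH1 and CLDN7 lower. Of 4 leukocyte markers in the table none had more than 4 counts. Fibroblast markers summed to 7.85 to 10.5 CPM in WT and 7.11 to 10.2 CPM in MUT, most of it COL1A1 (6.58 to 8.91 CPM). Endothelial markers summed to 9.48 to 11.0 CPM in WT and 6.41 to 8.91 CPM in MUT. TEK was the largest part of that sum (3.08 to 7.52 CPM), with overlapping groups. COL1A1 and TEK were the only genes tested on these lists, and neither was called. The other markers of both lists had at most 5 counts in any library. Markers listed as neuronal summed to 74.4 and 80.8 CPM in WT and 42.3 to 51.3 CPM in MUT. The fall of this sum lay in SYT1 and MAP2, called lower as the only 2 tested of 8. The rest had few counts and did not share a fall. SNAP25 was counted 6 times in each WT library, and 9, 3 and 20 times in MUT. SYN1 was counted 2 and 3 times in WT, and 4, 4 and 6 times in MUT. RBFOX3 and NEFL had at most 1 count in WT and at most 5 in MUT, and GAP43 and STMN2 had 0 or 1 count. The part of these values in the Eph and ephrin results was not tested. In bulk libraries, fewer cells with a given mRNA and fewer footprints per cell cannot be told apart.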

How the data were processed

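Raw counts of ribosome-protected fragments per gene, whole numbers that the authors deposited without normalization, were used for 5 libraries. Columns were matched to samples by the codes in the labels. The submitters' processing notes name the build hg38 and the tools STAR 2.5.2b, FastQC 0.12.1, cutadapt 4.6 and DESeq2 1.42.0. The counting tool, annotation and use of strand are not given here in any source. RNA-seq was not analysed here.

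In R 4.3.3, edgeR 4.0.16 kept genes by filterByExpr (minimum count 10, minimum total 15), scaled by TMM and compared MUT with WT by the quasi-likelihood F test with no covariate. P-values were adjusted by Benjamini-Hochberg over 11991 genes, with a threshold of 0.05. CPM use TMM-scaled library sizes. Standard errors came from the F statistic, and likeness to EFNA5 used log2 CPM with a prior count of 2. Members below the filter were EPHA1, EPHB3 and EFNA4. On counts simulated for this comparison (11991 genes, 50 changed at each size), 12% of 1.25-fold, 50% of 1.5-fold, 84% of 2-fold and 98% of 3-fold changes were recovered. Of 125 calls on these counts, 3 were false. With no change simulated, 0 calls were made. Far fewer genes changed in the simulation than were called in the data (1203 higher and 1544 lower). Recovery was not split by count level, so it does not give the recovery for thinly counted members. No library was a copy of another (lowest chi-square per gene over 10 pairs, 1.90).

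Named genes were all members and the remaining family, up to 5 genes of lowest p per pathway list, and the 5 genes most like EFNA5. Members and lists were chosen with earlier results of these data known. Lengths per gene were planned for comparing levels and not used here. Alternatives were RLE, upper-quartile and library-size scaling, DESeq2, limma-voom 3.58.1, no filter, a strict filter (a mean of 10 CPM and 30 counts in 2 libraries), a replicate block and each library left out. Promoters came from RefSeq (GRCh38.p14), with 10 of 10 members matched. No source mentions molecular identifiers, so intervals on counts cover counting error alone.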

Additional observations from a re-analysis of the deposited data

How the results depend on the processing

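Over 13 alternative settings (fewer where a filter removed the gene), EPHA2 and EFNB2 stayed higher in MUT. Both kept their call in all settings except without WT replicate 2. EPHB2, EPHB4, EFNA1 and EFNB1 were called in none of those that tested them. The members called higher numbered 0 to 2 and those lower 0 to 0 with 1 library left out. The other genes named (leaving out EPHA10, EPHB6 and NRP1, which entered through MUT alone) kept their side of the threshold in 255 comparisons and lost a call in 42. Leaving out 1 library gave 2 to 7 effectors higher and 6 to 9 lower, 0 to 3 cleavage genes higher and 1 to 2 lower, and 1 to 3 GPI genes higher and 0 to 1 lower. It gave 1 to 3 other receptor kinases higher and 0 to 1 lower, 3 to 4 guidance genes higher (NRP1 among them) and 0 lower, and 509 to 1089 genes of all higher and 732 to 1339 lower. DESeq2 called 4 effectors higher, 0 cleavage genes higher and 1 lower, 0 GPI genes lower, and 610 higher and 953 lower genes in all. GPI genes lower numbered 0 with library size only (where 1 cleavage gene was lower), 0 with upper-quartile scaling and 2 with the strict filter. Guidance genes lower numbered 1 with no count filter. With the replicate block 12 effectors were higher, 4 GPI genes and 1 guidance gene lower, TSPAN17 and PIGT lost their calls (adjusted p 0.0534 and 0.0506), and those of EPHA2 and EFNB2 held. The numbers are shared by 2 pairs of libraries, whose deviations from their group means correlated at 0.08 and 0.15 across genes, so they are not taken to pair the samples. The cause of these shifts was not tested. EPHA1, EPHB3 and EFNA4, below the count filter, are limited by depth.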

Other observations

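Other families that guide cells and axons were counted in the same libraries. Of 26 tested guidance genes, leaving out NRP1, 3 were higher in MUT and 0 lower (edgeR's adjusted p under 0.05). Of all tested genes, 10.0% were called higher and 12.9% lower. The 26 were semaphorins, plexins, ROBO3, netrins, NEO1, UNC5A, UNC5B, RGMA and RGMB, and slits were not among them. Their median log2 fold change was 0.25, beside 0.00 for all genes. The secreted semaphorin SEMA3C rose 2.26-fold, with a WT mean of 29.3 ± 4.46 CPM (SD, n = 2) and a MUT mean of 65.0 ± 8.19 CPM (SD, n = 3). NRP1, a co-receptor for class 3 semaphorins, had 3 counts in each WT library and 37, 25 and 42 in the MUT libraries, and since it passed the count filter through the MUT libraries alone, it is described with no test. The plexins PLXND1 and PLXNB2 rose 1.92-fold and 1.47-fold. SEMA3C and PLXND1 kept their calls in 13 of 13 alternative settings, with adjusted p up to 0.0495 (PLXND1), and PLXNB2 lost its call without WT replicate 1, without MUT replicate 1 and with DESeq2 (adjusted p up to 0.110).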
